A study of Mus musculus with 32 samples.

Results

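The dual-specificity MAPK phosphatases described here are 10 genes, Dusp1, Dusp2, Dusp4, Dusp5, Dusp6, Dusp7, Dusp8, Dusp10, Dusp14 and Dusp16, taken by symbol from the 51267 features of a total RNA count table. All 10 passed the filter on low counts and were among the 17173 features tested. The libraries came from primary hippocampal neurons of newborn mice, taken for RNA at 16 days in vitro. Cultures were exposed for 30 minutes to 50 µM forskolin (FSK, 6 libraries), an activator of adenylyl cyclase, the enzyme that makes cAMP, to 30 µM DHPG (6 libraries), an agonist of group I metabotropic glutamate receptors, or to DMSO at the same volume (4 libraries). All 3 groups share the culture age and the exposure time, and the labels name no transgene or deletion. The labels do not say whether libraries came from separate cultures or animals, so p-values measure only the spread between libraries, which may be technical.

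Mitogen-activated protein kinases (ERK, JNK and p38) are switched on by phosphorylation of a threonine and a tyrosine in the activation loop. Dual-specificity MAPK phosphatases remove both phosphates, and several are themselves transcribed in response to the pathway they silence, which gives negative feedback. In neurons Dusp1, Dusp5 and Dusp6 are known as activity-regulated genes, and cAMP acts on transcription through CREB, which binds the cAMP response element (CRE).

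The sequences before the transcription starts are given first, because cAMP-responsive transcription is commonly read from CREs and serum-responsive transcription from CArG boxes (the binding site of SRF). The set of RefSeq promoters used (GRCm38.p6) held 9 of the 10 genes. Dusp4 had no entry in it and was not searched. The 250 bases before each start were searched on both strands for the CRE (TGACGTCA), the short CRE core (TGACG, of which each CRE holds 2), the CArG box, the AP-1 site (TGANTCA) and the EGR site (GCGGGGGCG), and on the gene's strand alone for TATAAA. Dusp1 is shown as the member with the highest FSK fold change, Dusp8 and Dusp7 as the members with negative FSK fold changes whose groups did not overlap, and Dusp5 for its CArG boxes. Each line runs 5′ to 3′ on the gene's strand and ends at the base before the start. Capitals mark matches to any of these motifs. The Dusp1 promoter lies at chr17:26508473-26508722 (minus strand), that of Dusp8 at chr7:142095285-142095534 (minus), that of Dusp5 at chr19:53528895-53529144 (plus) and that of Dusp7 at chr9:106368382-106368631 (plus).
Dusp1: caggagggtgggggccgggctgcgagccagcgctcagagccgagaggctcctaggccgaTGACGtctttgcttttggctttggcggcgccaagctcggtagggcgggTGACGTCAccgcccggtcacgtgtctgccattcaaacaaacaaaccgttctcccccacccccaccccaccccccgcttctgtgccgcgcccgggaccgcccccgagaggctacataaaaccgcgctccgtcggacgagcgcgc
Dusp8: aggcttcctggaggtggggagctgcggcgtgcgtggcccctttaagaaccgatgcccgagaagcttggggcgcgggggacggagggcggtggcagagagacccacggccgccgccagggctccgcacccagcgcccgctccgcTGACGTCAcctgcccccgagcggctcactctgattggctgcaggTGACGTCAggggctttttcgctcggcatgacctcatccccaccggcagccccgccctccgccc
Dusp5: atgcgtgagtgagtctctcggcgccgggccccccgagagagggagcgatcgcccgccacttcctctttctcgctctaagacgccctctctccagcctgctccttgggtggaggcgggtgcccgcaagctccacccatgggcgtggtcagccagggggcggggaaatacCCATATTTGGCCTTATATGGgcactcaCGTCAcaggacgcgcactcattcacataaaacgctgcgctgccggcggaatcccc
Dusp7: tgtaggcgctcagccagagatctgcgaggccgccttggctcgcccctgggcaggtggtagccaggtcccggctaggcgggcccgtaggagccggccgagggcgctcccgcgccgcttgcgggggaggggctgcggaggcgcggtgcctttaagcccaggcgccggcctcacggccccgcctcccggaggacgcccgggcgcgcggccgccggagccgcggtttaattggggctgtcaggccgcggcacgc

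Dusp1 held 1 CRE, ending 136 bases before the start, and a further CRE core ending 187 bases before it. Dusp8 held 2 CREs, ending 56 and 100 bases before the start. Dusp5 held 2 adjacent CArG boxes, ending 63 and 73 bases before the start, and 1 CRE core ending at 51. Dusp16 held 1 CRE core (66 bases before the start) and Dusp2 an EGR site (90 bases before the start). None of these motifs was found in the windows of Dusp6, Dusp7, Dusp10 and Dusp14, and neither the AP-1 site nor TATAAA was found in any of the 9. Of 32851 mouse promoters of the same length, 1.55% held a CRE, 17.8% a CRE core, 1.47% a CArG box, 6.75% an AP-1 site, 2.57% an EGR site and 7.59% TATAAA. A match describes the letters in a window and is not evidence of binding.

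**Figure D1:**
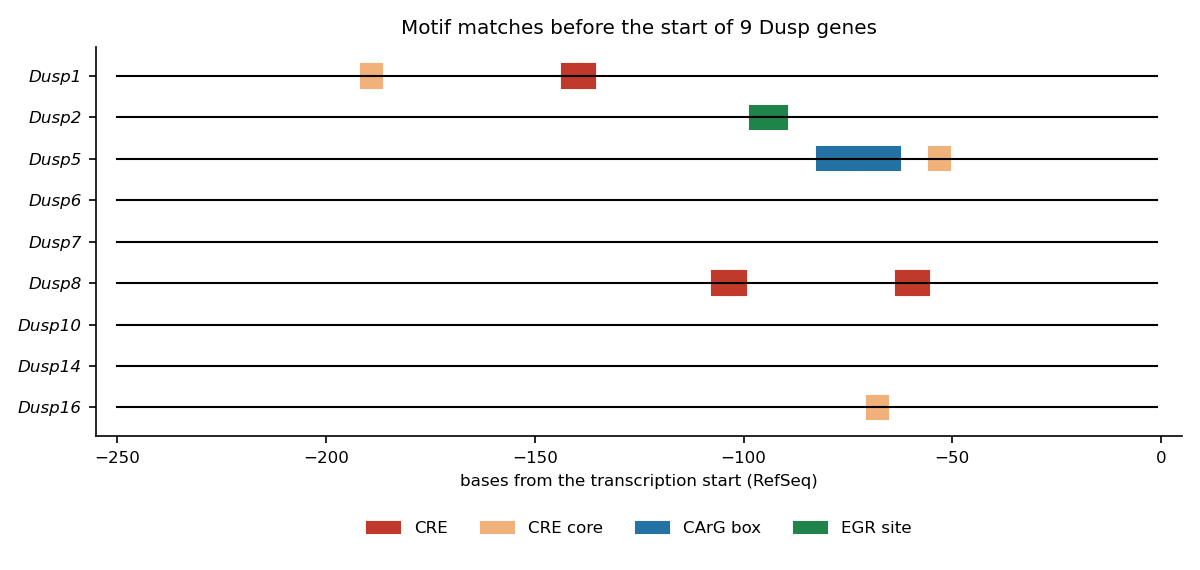
Motif matches in the 250 bases before the transcription start of 9 Dusp genes (x axis, bases from the RefSeq start; one line per gene). CREs appear in Dusp1 and Dusp8, CArG boxes in Dusp5 and an EGR site in Dusp2. CRE cores that lie inside a CRE are covered by it.

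Levels are given as CPM, the counts scaled to library size with TMM factors. They are not divided by transcript length, so they compare libraries and not genes with each other. Estimated counts were lowest for Dusp2, at 7 to 39 per library, and reached 9367 for Dusp1. The total RNA libraries fell into 2 sets that the labels do not describe. FSK 4 to 6, DHPG 6 and DMSO 2 to 4 (the deep set) held 38409918 to 59958600 counts with 10.8 to 27.7% mitochondrial rRNA, while FSK 1 to 3, DHPG 1 to 5 and DMSO 1 (the shallow set) held 20677117 to 24892959 counts with 1.47 to 2.92%. Fits with an added term for the library set stand beside the fits on treatment alone. Markers of the labelled cell type were present, with all 8 excitatory neuron markers tested, beside markers of astrocytes, the oligodendrocyte lineage and microglia. Of 49 cell type markers tested, none passed in either comparison with DMSO by edgeR. In FSK against DMSO 22 of the 49 had an unadjusted p under 0.05, against 21.3% of all features. By the DESeq2 Wald test 17 passed, against 8.11% of features, and by limma-voom 22, against 35.1%. In DHPG against DMSO these counts were 10, 0 and 24, against 12.4%, 0.0408% and 34.6% of features. In FSK against DHPG 21 of the 49 passed by edgeR, against 30.8% of features.

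**Figure D2:**
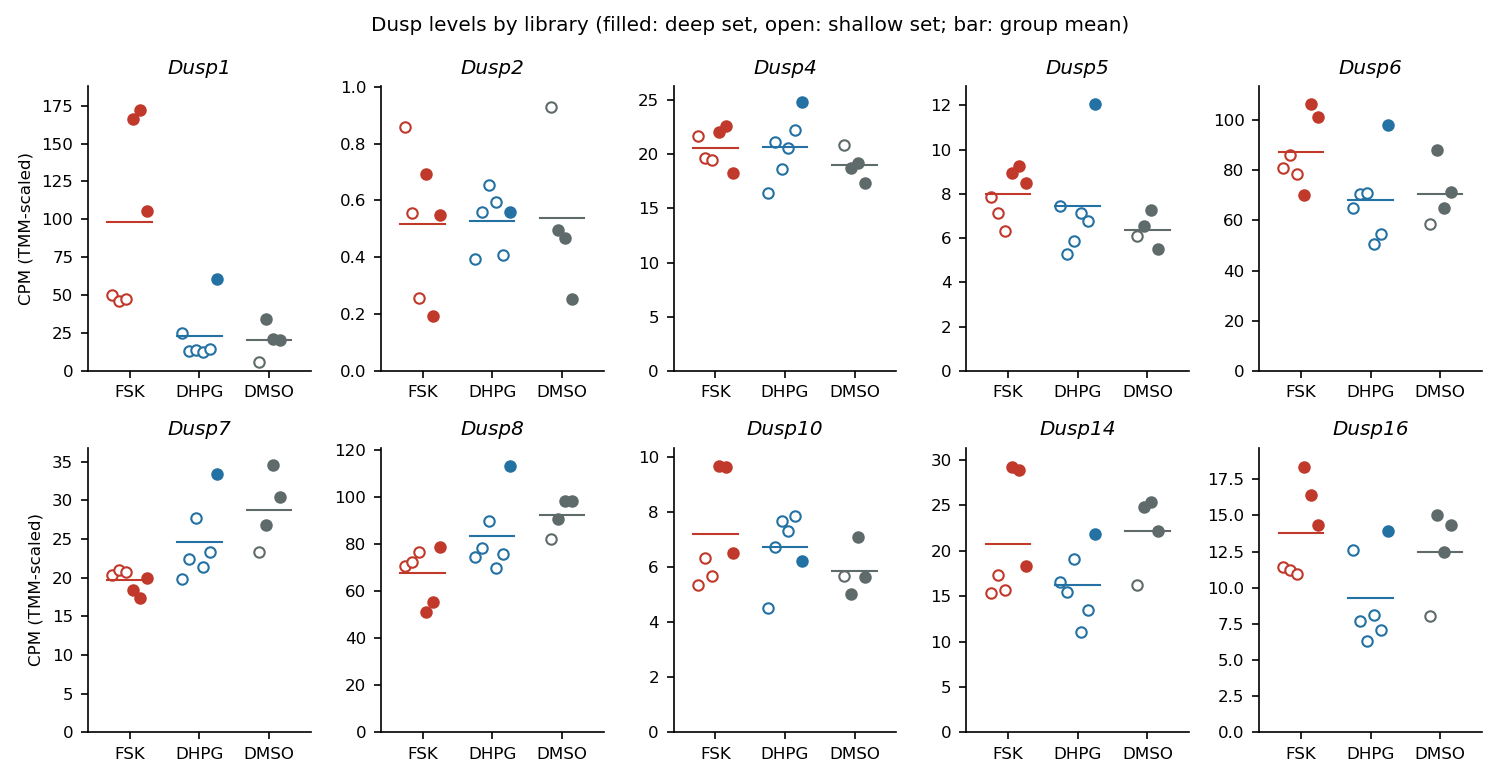
CPM of each Dusp gene (y axis, from 0, with its own scale per gene) in every FSK, DHPG and DMSO library; each point is 1 library, filled for the deep and open for the shallow set, and each bar is a group mean. The 6 FSK points of Dusp1, from 45.8 to 172 CPM, lie above all 4 DMSO points, and those of Dusp7 and Dusp8 lie below them.

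FSK was set against DMSO to see which of these phosphatases respond to raised cAMP within 30 minutes. Dusp1 had 4.75 times the DMSO level in FSK libraries, and Dusp7 and Dusp8 had 0.68 and 0.73 times the DMSO level. On treatment alone no member passed an adjusted p of 0.05 (edgeR quasi-likelihood F test, Benjamini-Hochberg over 17173 features), where 0.809% of all features did. At an unadjusted p of 0.05, 3 members passed, Dusp1, Dusp7 and Dusp8, against 21.3% of all features. The same 3 passed the DESeq2 Wald test, in which 8.11% of features passed, and limma-voom with sample quality weights passed 4, Dusp14 besides these 3, and 35.1% of features. These 3 were also the members whose FSK and DMSO libraries did not overlap. Dusp1 lay above, as did 3.62% of all features, and Dusp7 and Dusp8 lay below, as did 4.36%. The median log2 fold change of the 10 members was 0.13, against 0.02 over all features, and 6 of 10 were positive, against 52.1% of features. With the library-set term Dusp1 rose and Dusp7 fell, where 3.45% of all features rose and 5.99% fell (9.45% in all).

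Dusp1 (MKP-1), a nuclear phosphatase of p38, JNK and ERK and a classical immediate-early gene, had 49.8, 45.8 and 47.6 CPM in the shallow FSK libraries 1 to 3 and 166, 172 and 106 CPM in the deep FSK libraries 4 to 6. In DMSO it had 6.14 CPM in the shallow library and 34.4, 21.4 and 20.3 CPM in the deep ones. Every FSK library was thus higher than every DMSO library, which includes the DMSO libraries of its own set. Dusp1 averaged 97.9 ± 59.8 CPM in FSK (n = 6) and 20.6 ± 11.6 CPM in DMSO (SD, n = 4). The log2 fold change was 2.25 ± 0.60 (SE; 95% interval 0.98 to 3.51; 4.75-fold), with an adjusted p of 0.078 by edgeR on treatment alone, which missed the limit. With the library-set term it was 2.68 ± 0.23 (2.19 to 3.17; adjusted p = 4.0e-05, edgeR). On treatment alone Dusp1 passed only when DHPG 6 was left out of the fit, which shares its spread among all groups (2.25, adjusted p = 0.032, edgeR), among the 16 fits that left out 1 library.

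The same rise appeared inside each set. Among deep libraries alone the Dusp1 log2 fold change was 2.53 ± 0.28 (adjusted p = 0.033, edgeR), where 0.761% of features passed. Among shallow libraries it was 2.96 ± 0.40 (adjusted p = 0.035, edgeR), where 0.0619% passed, with the lone DMSO library assumed to vary like the other groups. The difference between the sets in the FSK response, deep minus shallow, was -0.41 ± 0.49 log2 units (adjusted p = 0.90, edgeR interaction). In the authors' deposited table of FSK against DMSO, Dusp1 had a log2 fold change of 2.25 with an adjusted p of 0.00063; 3 of 10 members passed there, against 8.0% of features.

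FSK 4 and FSK 5, the libraries with the most Dusp1, also held the most microglial RNA. The 12 microglia markers, all tested, summed to 8.37 to 319 CPM in FSK libraries, 10.01 to 32.9 CPM in DHPG libraries and 6.09 to 21.6 CPM in DMSO libraries, with 171 CPM in FSK 4 and 319 CPM in FSK 5. FSK 6 had 8.37 CPM of these markers, against 6.09 to 11.99 CPM in the deep DMSO libraries, and had 106 CPM of Dusp1. Oligodendrocyte-lineage markers (8 of 9 tested) summed to 568 to 1305 CPM in FSK libraries, 545 to 842 CPM in DHPG libraries and 541 to 810 CPM in DMSO libraries, with FSK 6 again the lowest of the FSK libraries. Without FSK 4 and FSK 5 the Dusp1 log2 fold change was 1.59 ± 0.57 (adjusted p = 0.17, edgeR) on treatment alone and 2.56 ± 0.27 (adjusted p = 0.00062, edgeR) with the library-set term, a fit in which 0.335% of features passed. The part of microglial and oligodendrocyte-lineage RNA in the Dusp1 values was not tested.

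**Figure D3:**
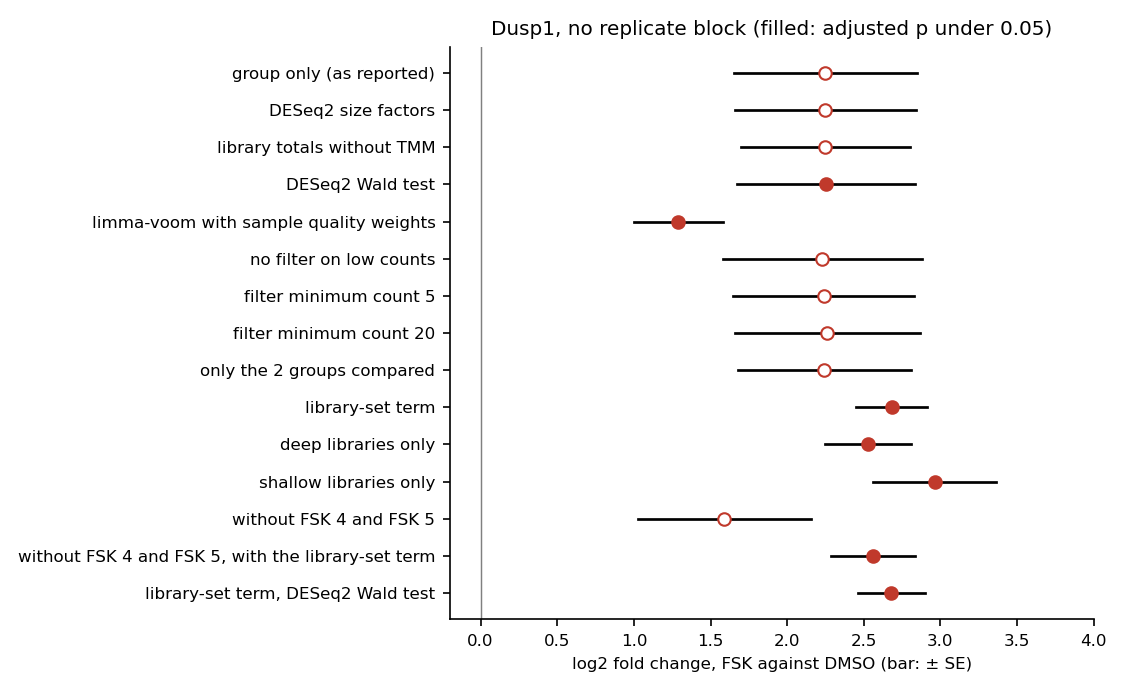
Log2 fold change of Dusp1, FSK against DMSO (x axis; bars, SE), under the processing settings without the replicate block, filled where the adjusted p is under 0.05. All values shown are positive, and they run from 1.29 with limma-voom sample quality weights to 2.96 among shallow libraries alone.

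The other inducible nuclear phosphatases showed smaller differences. Dusp5, a nuclear phosphatase specific for ERK and itself an ERK target gene, had 6.31 CPM at the lowest, 8.18 CPM at the median and 9.28 CPM at the highest in FSK libraries, against 6.10, 6.56, 7.26 and 5.49 CPM in DMSO 1 to 4. The FSK libraries reached above every DMSO library in 4 of 6, and above every DMSO library of their own set in 6 of 6. That second pattern held for 7.94% of all features. Its log2 fold change was 0.33 ± 0.20 (95% interval -0.09 to 0.76; adjusted p = 0.35, edgeR), and 0.43 with the library-set term (adjusted p = 0.078, edgeR). Dusp4 (MKP-2), which acts on ERK and JNK, varied little, with 18.3 to 22.6 CPM in FSK and 17.4 to 20.9 CPM in DMSO. Its log2 fold change was 0.11 ± 0.11 (-0.12 to 0.35). Dusp2 (PAC-1), best known from lymphocytes, had 0.19 to 0.86 CPM in FSK and 0.25 to 0.93 CPM in DMSO, and its log2 fold change of -0.03 had an interval of -0.89 to 0.84, so that differences of that size were not detectable at this depth.

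Dusp6 and Dusp7 are cytoplasmic phosphatases selective for ERK. Dusp6 (MKP-3), induced by ERK signalling as a feedback inhibitor, had 70.1 CPM at the lowest, 83.5 CPM at the median and 106 CPM at the highest in FSK libraries, and 58.7, 88.0, 64.9 and 71.2 CPM in DMSO 1 to 4. The groups overlapped, with 2 of 6 FSK libraries above every DMSO library, and 5 of 6 above those of their own set. Its log2 fold change was 0.30 ± 0.17 (-0.07 to 0.67; adjusted p = 0.33, edgeR), and 0.40 with the library-set term (adjusted p = 0.080, edgeR).

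Dusp7 had 20.3, 21.0, 20.8, 18.4, 17.4 and 19.9 CPM in FSK 1 to 6, against 23.3, 26.8, 34.6 and 30.4 CPM in DMSO 1 to 4. All 6 FSK libraries were below the lowest DMSO library, and the FSK libraries differed little among themselves (coefficient of variation 7.23%). The log2 fold change was -0.55 ± 0.14 (-0.85 to -0.26; adjusted p = 0.070, edgeR), and -0.50 ± 0.14 with the library-set term (adjusted p = 0.037, edgeR). Leaving out 1 library at a time, the value with the term ran between -0.58 and -0.42, and it passed in 9 of 16 fits, but not when any one of DMSO 1 to 4, FSK 1, FSK 4 or FSK 5 was left out. On treatment alone it passed without DHPG 6 (adjusted p = 0.028, edgeR). It was -0.73 among deep libraries, -0.16 among shallow libraries and -0.32 without FSK 4 and FSK 5 with the library-set term, with edgeR adjusted p-values of 0.073, 0.60 and 0.24. The authors' deposited table gives Dusp7 a log2 fold change of -0.56 (adjusted p = 0.0018). Its estimated counts were whole numbers (within 0.01) in 9 of 16 libraries and those of Dusp8 in 2 of 16. Each of the other 8 members had whole numbers in 16 of 16. The values of Dusp7 and Dusp8 thus rest in part on reads that the quantifier did not assign wholly to that gene.

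Dusp8, a phosphatase of JNK and p38 expressed in brain, had 70.8, 72.4, 76.9, 51.2, 55.5 and 79.0 CPM in FSK 1 to 6, against 82.2, 90.8, 98.5 and 98.4 CPM in DMSO 1 to 4. Again all 6 FSK libraries lay below all 4 DMSO libraries. It follows that for Dusp7 and Dusp8 all 6 FSK libraries were also below every DMSO library of their own set, as for 12.2% of all features. The Dusp8 log2 fold change was -0.45 ± 0.15 (-0.76 to -0.14; adjusted p = 0.11, edgeR), and -0.42 with the library-set term (adjusted p = 0.073, edgeR). It was -0.15 without FSK 4 and FSK 5 with that term (adjusted p = 0.44, edgeR). Among deep libraries it was -0.64 and among shallow libraries -0.16, where DMSO 1 is the lone DMSO library. The difference between the sets in the FSK response, deep minus shallow, was -0.55 log2 units for Dusp7 and -0.47 for Dusp8. Its shallow side rests on DMSO 1 alone, so these values do not show that the response differed between the sets. In the authors' deposited table the Dusp8 log2 fold change was -0.46 with an adjusted p of 0.048.

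Excitatory neuron markers were set beside Dusp7 and Dusp8 library by library. The 8 markers summed to 815 to 1211 CPM in FSK libraries, 1019 to 1601 CPM in DHPG libraries and 1210 to 1547 CPM in DMSO libraries, and their median log2 fold change in FSK against DMSO was -0.45. FSK 4 and FSK 5, lowest in these markers (815 and 867 CPM), were also lowest in Dusp7 and Dusp8, and DHPG 6, highest in the markers, was highest in Dusp8. FSK 6 and DMSO 1 had like marker sums, at 1211 and 1210 CPM. FSK 6 had 19.9 CPM of Dusp7 and 79.0 CPM of Dusp8, and DMSO 1 had 23.3 and 82.2 CPM. Inhibitory neuron markers (7 of 7 tested) summed to 253 to 564 CPM in FSK libraries, 494 to 584 CPM in DHPG libraries and 363 to 615.6 CPM in DMSO libraries. The part of these markers in the lower Dusp7 and Dusp8 values was not tested, and in bulk RNA fewer cells of a type and less RNA per cell cannot be told apart.

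**Figure D4:**
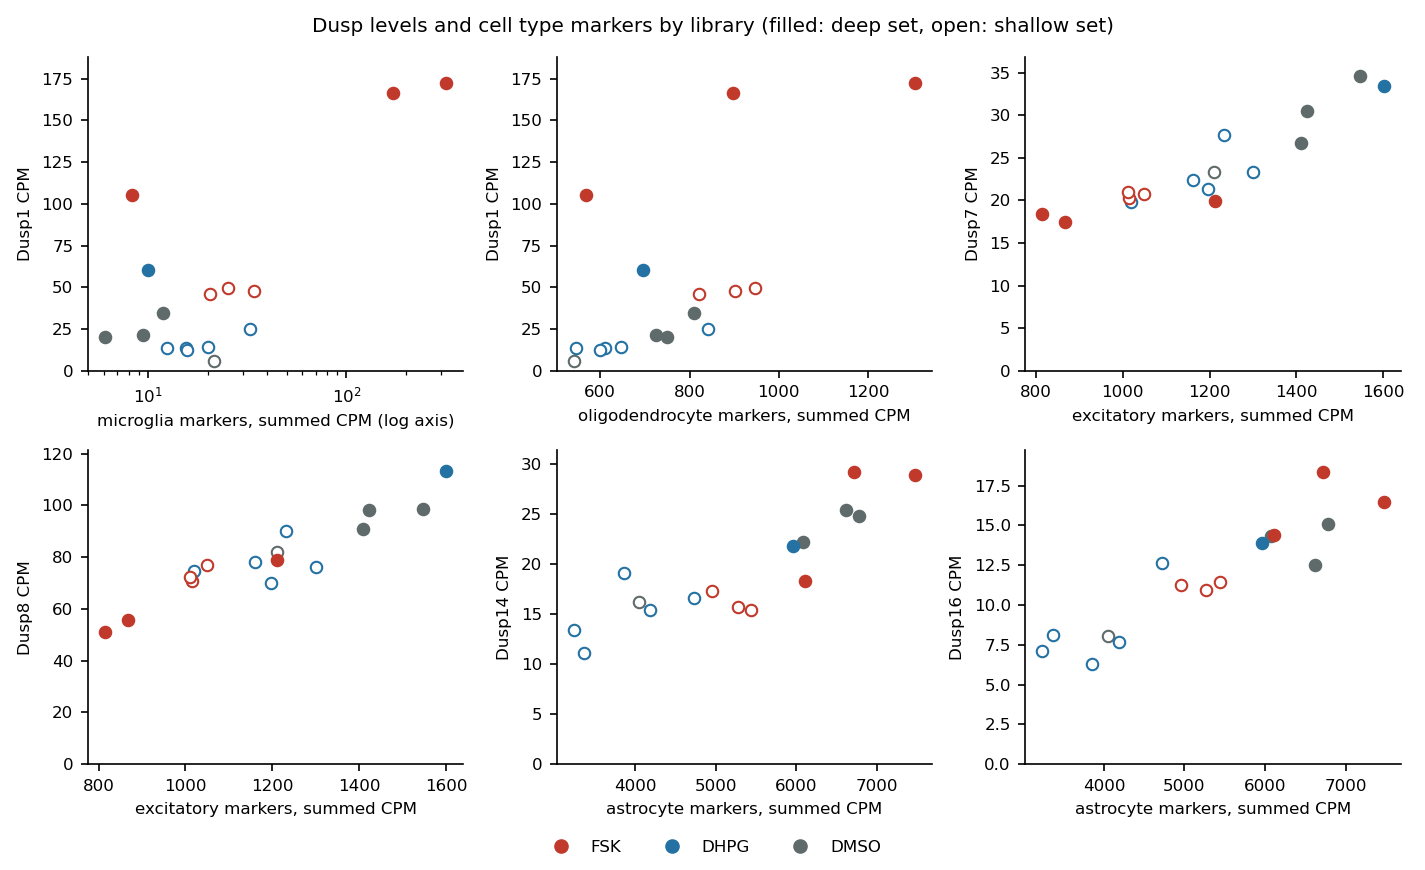
CPM of Dusp1, Dusp7, Dusp8, Dusp14 and Dusp16 (y axes, from 0) against the summed CPM of a cell type's markers (x axes, not from 0; log axis for microglia), 1 point per FSK, DHPG or DMSO library, filled for the deep set and open for the shallow set. FSK 6 has 106 CPM of Dusp1 at 8.37 CPM of microglia markers, and Dusp7 and Dusp8 are lowest where excitatory markers are lowest, at 815 and 867 CPM.

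The remaining phosphatases overlapped between FSK and DMSO. Dusp10 (MKP-5), which acts on JNK and p38, had 5.37 to 9.70 CPM in FSK and 5.02 to 7.10 CPM in DMSO, with a log2 fold change of 0.30 ± 0.20 (-0.13 to 0.73). Dusp16 (MKP-7), a JNK phosphatase that shuttles between nucleus and cytoplasm, had 10.9 to 18.3 CPM in FSK and 8.04 to 15.1 CPM in DMSO, with a log2 fold change of 0.14 ± 0.24 (-0.37 to 0.66). It was 0.32 ± 0.16 with the library-set term (-0.03 to 0.66; adjusted p = 0.18, edgeR), and 5 of 6 FSK libraries lay above every DMSO library of their own set. For FSK 1 to 3 that set holds DMSO 1 alone, the lowest DMSO library in Dusp16 at 8.04 CPM. Dusp14 (MKP-6), a small atypical phosphatase without the kinase-binding domain of the others, had 15.4 to 29.2 CPM in FSK and 16.2 to 25.4 CPM in DMSO, with a log2 fold change of -0.09 ± 0.22 (-0.56 to 0.38). With the term Dusp10 had 0.35 (-0.06 to 0.75) and Dusp14 had 0.04 (-0.27 to 0.36).

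Dusp14 and Dusp16 also differed by library set, while Dusp10 was higher only in FSK 4 and FSK 5 among FSK libraries. In FSK, Dusp10 had 9.70 and 9.67 CPM in FSK 4 and 5 and 5.37 to 6.52 CPM in the other 4 libraries, the deep FSK 6 included. In DMSO it had 5.02 to 7.10 CPM in the deep libraries and 5.70 CPM in the shallow one. Dusp14 had 29.2 and 28.9 CPM in FSK 4 and 5, 18.3 CPM in FSK 6 and 15.4 to 17.3 CPM in FSK 1 to 3. Dusp16 had 14.4 to 18.3 CPM in the deep and 10.9 to 11.5 CPM in the shallow FSK libraries, and among DMSO libraries 12.5 to 15.1 CPM in the deep ones and 8.04 CPM in the shallow one. Astrocyte markers (8 of 8 tested) summed to 4954 to 7475 CPM in FSK libraries, 3236 to 5961 CPM in DHPG libraries and 4052 to 6779 CPM in DMSO libraries, and in each group the deep libraries held more of them than the shallow ones. Endothelial and mural markers (6 of 9 tested) summed to 23.3 to 43.0 CPM in FSK, 16.8 to 26.5 CPM in DHPG and 23.4 to 51.2 CPM in DMSO libraries. The part of depth, rRNA share and glial RNA in these values was not tested.

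DHPG was set against DMSO to see which phosphatases respond to group I metabotropic glutamate receptors. No member passed (edgeR), and neither did most features (0.00582% passed). At an unadjusted p of 0.05 no member passed either, against 12.4% of features. The DESeq2 Wald test passed 0 members and 0.0408% of features, and limma-voom passed 4 members, all with lower values in DHPG (Dusp7, Dusp8, Dusp14 and Dusp16), and 34.6% of features. No member lay entirely above or entirely below the DMSO libraries, which 0.641% and 0.670% of features did. The median log2 fold change was -0.02 over the members and -0.01 over all features, with 5 of 10 members positive. This comparison is the one most tied to the library set, since 5 of 6 DHPG libraries are shallow and 3 of 4 DMSO libraries are deep. It shares its DMSO libraries with the FSK comparison.

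Dusp1 had 25.0, 13.4, 13.8, 12.6 and 14.5 CPM in the shallow DHPG libraries 1 to 5 and 60.4 CPM in the deep DHPG 6. Against them stood 6.14 CPM in the shallow DMSO library and 20.3 to 34.4 CPM in the deep ones. Pooled, the groups overlapped, but inside each set every DHPG library exceeded every DMSO library. That held for 3.21% of all features in the upward and 3.13% in the downward direction. The log2 fold change was 0.18 ± 0.55 (-0.99 to 1.36; adjusted p = 0.88, edgeR) on treatment alone. With the library-set term it was 1.201 ± 0.24 (0.69 to 1.71), with an unadjusted p of 0.00013 and an adjusted p of 0.32 by edgeR, in a fit where 0% of features passed. The DESeq2 Wald test with the same term gave 1.19 with an adjusted p of 0.0018, where 0.0933% of features passed, a setting chosen after seeing the data. Since each set holds a single library of one of these groups, the difference within a set rests on DHPG 6 in the deep and on DMSO 1 in the shallow set.

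Dusp5 likewise had its highest value in DHPG 6, at 12.04 CPM, with 5.30 to 7.46 CPM in the other DHPG libraries and 5.49 to 7.26 CPM in DMSO. Its log2 fold change was 0.23 ± 0.20 (-0.19 to 0.65). It was 0.45 ± 0.17 with the library-set term (0.09 to 0.80), with an unadjusted p of 0.016 and an adjusted p above 0.99 by edgeR. It was 0.92 among deep libraries, where DHPG 6 is the lone DHPG library, and 0.10 among shallow ones. Dusp14 had 11.1 to 21.9 CPM in DHPG and 16.2 to 25.4 CPM in DMSO, a log2 fold change of -0.45 ± 0.22 (-0.92 to 0.02), which was -0.09 with the library-set term. Dusp16 had 6.29 to 13.9 CPM in DHPG and 8.04 to 15.1 CPM in DMSO, with -0.43 ± 0.24 (-0.94 to 0.09) on treatment alone and -0.04 with that term. The remaining members had log2 fold changes between -0.22 (Dusp7) and 0.20 (Dusp10), and Dusp10 had 0.36 with the term. The authors' deposited table of DHPG against DMSO likewise held no member past an adjusted p of 0.05, where 1.48% of features passed, and its smallest adjusted p among the members was 0.20, for Dusp14.

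**Figure D5:**
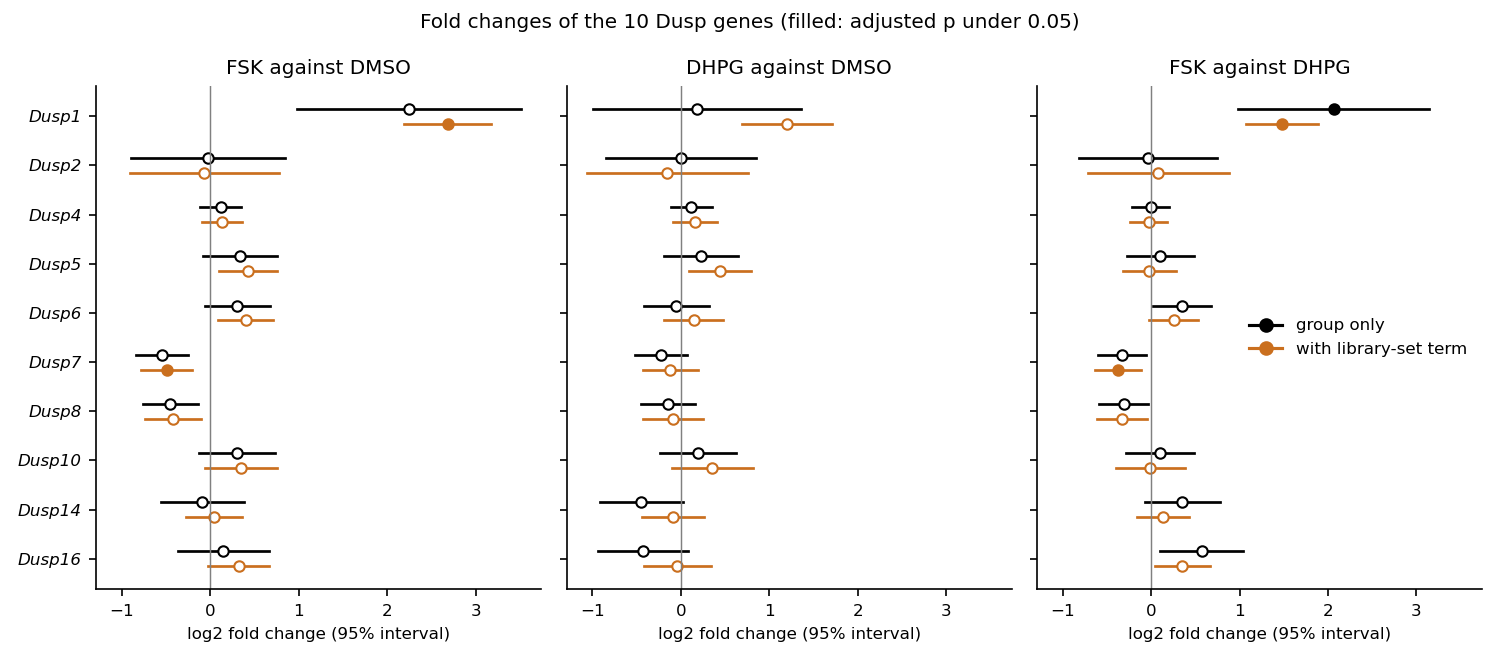
Log2 fold changes (x axis) of the 10 Dusp genes with 95% intervals, on treatment alone (black) and with the library-set term (orange), filled where the adjusted p is under 0.05. Dusp1 in FSK against DHPG is the only filled point among those on treatment alone, at 2.06; with the term Dusp1 and Dusp7 are filled in both FSK comparisons.

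Set directly against each other, the 2 agents differed in Dusp1. This was the only member of the 10 to pass (edgeR), while 30.8% of all features did, and 5 members passed at an unadjusted p of 0.05, against 45.2% of features. Dusp1 averaged 97.9 ± 59.8 CPM in FSK and 23.3 ± 18.8 CPM in DHPG (SD, n = 6 each), a log2 fold change of 2.06 ± 0.51 (0.99 to 3.14; adjusted p = 0.017, edgeR). DHPG 6, at 60.4 CPM, exceeded the 3 shallow FSK libraries, so the groups overlapped, and no member was separated from DHPG in all 6 FSK libraries, against 3.21% of features above and 4.03% below. Within sets every FSK library exceeded every DHPG library in Dusp1, with 6.61% of features doing so, and no member lay below in all 6, against 6.77% of features. With the library-set term the log2 fold change of Dusp1 was 1.48 ± 0.19 (adjusted p = 0.0063, edgeR). It was 1.26 among deep libraries, where DHPG 6 is the lone DHPG library. Without FSK 4 and FSK 5 it was 1.41 on treatment alone (adjusted p = 0.11, edgeR), where only 3 features passed. With the term that fit passed 1551 features, Dusp1 among them. Dusp1 passed in 14 of 16 settings other than leaving out 1 library. Beside the Dusp1 difference, 9 of 12 microglia markers rose in FSK relative to DHPG and 0 fell (edgeR, treatment alone). The median log2 fold change over the 12 was 2.71. Of 8 astrocyte markers 4 rose and 0 fell, and of 8 oligodendrocyte-lineage markers 3 rose and 1 fell. Of 8 excitatory neuron markers 0 rose and 2 fell, and of 7 inhibitory neuron markers 1 rose and 1 fell. Of 6 endothelial and mural markers 0 rose and 0 fell. Of all features 16.3% rose and 14.4% fell. The microglia markers summed to 171 and 319 CPM in FSK 4 and FSK 5. In the other FSK libraries they summed to 8.37 to 34.4 CPM, against 10.01 to 32.9 CPM in DHPG libraries. The part of these markers in the Dusp1 difference was not tested.

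With the library-set term Dusp7 also fell in FSK relative to DHPG, by 0.37 on the log2 scale (adjusted p = 0.039, edgeR), in a fit where 23.3% of features passed. Leaving out 1 library at a time with the term, the value ran between -0.43 and -0.23 and passed in 9 of 16 fits, but not when any one of DHPG 2, 3, 5 or 6 or FSK 1, 4 or 5 was left out. It was -0.87 among deep libraries, -0.14 among shallow libraries and -0.27 without FSK 4 and FSK 5 with the term, with edgeR adjusted p-values of 0.11, 0.40 and 0.11. On treatment alone it had 17.4 to 21.0 CPM in FSK and 19.9 to 33.4 CPM in DHPG, a log2 fold change of -0.33 ± 0.13 (adjusted p = 0.057, edgeR). Dusp16 had 10.9 to 18.3 CPM in FSK and 6.29 to 13.9 CPM in DHPG (0.57 ± 0.22; adjusted p = 0.057, edgeR), and 0.35 with the term (adjusted p = 0.087, edgeR). Dusp6 had 70.1 to 106 CPM in FSK and 50.6 to 98.1 CPM in DHPG (0.35 ± 0.16; adjusted p = 0.088, edgeR). Dusp8 had 51.2 to 79.0 CPM in FSK and 69.9 to 113 CPM in DHPG (-0.31 ± 0.13; adjusted p = 0.081, edgeR). Dusp14 differed by 0.36 ± 0.20, and the log2 fold changes of Dusp2, Dusp4, Dusp5 and Dusp10 lay between -0.03 and 0.10. The median over the members was 0.10, against 0.03 over all features.

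The 3 features whose log2 CPM followed Dusp1 most closely over the 16 libraries, among 14706 features with an average log2 CPM of at least 0, were Ccn1 (Pearson r = 0.96), Spty2d1 (0.95) and Gm29562 (0.95). These correlations describe libraries that share treatment, depth and library set. Ccn1, a secreted matrix protein gene of the immediate-early class, averaged 135 CPM in FSK, 51.4 CPM in DHPG and 40.7 CPM in DMSO, with a log2 fold change of 1.73 in FSK against DMSO (adjusted p = 0.092, edgeR) and 0.34 in DHPG against DMSO. For Spty2d1, a histone chaperone gene, these were 0.76 (adjusted p = 0.065, edgeR) and -0.07, and for Gm29562 1.21 (adjusted p = 0.043, edgeR) and 0.12.

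The kinases, scaffolds and targets around these phosphatases were counted in 8 lists of 95 genes, of which 89 were tested. None of the 89 passed in FSK against DMSO or in DHPG against DMSO on treatment alone (edgeR). In FSK against DMSO 18 of the 89 had an unadjusted p under 0.05, against 21.3% of features, and 7 passed by the DESeq2 Wald test (8.11% of features) and 34 by limma-voom (35.1%). In DHPG against DMSO these counts were 7, 0 and 34, against 12.4%, 0.0408% and 34.6% of features. In FSK against DMSO 7 of 89 fell and 0 rose with the library-set term, where 5.99% of features fell and 3.45% rose. The lowest p-values in FSK against DMSO belonged to Mapk8ip1 among scaffolds (a JNK-interacting protein; log2 fold change -0.57, adjusted p = 0.094, edgeR), Srf among MAPK-regulated transcription factors (serum response factor; -0.53, adjusted p = 0.082, edgeR), Map3k10 among MAP3 kinases (a mixed-lineage kinase upstream of JNK; -0.69, adjusted p = 0.083, edgeR) and Mapk7 among MAP kinases (ERK5; -0.44, adjusted p = 0.13, edgeR). These 4 genes passed with the library-set term, at -0.66, -0.46, -0.84 and -0.51.

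In the other lists the lowest p-values belonged to Map2k7, a MAP2 kinase that acts on JNK (-0.29, adjusted p = 0.11, edgeR), Rps6ka3, the ERK-activated kinase RSK2 (0.50, adjusted p = 0.11, edgeR), Ptpn5, the neuronal tyrosine phosphatase STEP (-0.43, adjusted p = 0.13, edgeR), and Dusp27 (-1.86, adjusted p = 0.17, edgeR), the last at 0.10 CPM in FSK and 0.41 CPM in DMSO. Median log2 fold changes of the lists in FSK against DMSO lay between -0.31 for the 10 scaffolds and 0.10 for the 22 RAF and MAP3 kinases tested. In FSK against DHPG 12 of the 89 rose and 17 fell, where 16.3% and 14.4% of all features did. Scaffolds had 1 that rose and 5 that fell of 10, and the 16 other dual-specificity phosphatases tested had 3 that rose and 1 that fell.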

How the data were processed

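Total RNA from 16 libraries of cultured hippocampal neurons was analysed. Libraries were made with the TruSeq Stranded Total RNA kit, per the labels' protocols. The submitters' processing notes name Salmon, DESeq and the GRCm38 build; the tool versions are not given in those notes. The authors deposited estimated counts, of which 26.6% are not whole, and these were rounded before testing. The authors' deposited tables of FSK and DHPG against DMSO give log2 fold changes and p-values, besides a base mean (a signal) and a test statistic (a score) that were not printed. Control columns of the deposited counts were paired with DMSO samples through their numbers. The miRNA tables were not used here.

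Library totals were 20677117 to 59958600. Features were filtered with filterByExpr (minimum count 10), which kept 17173 of 51267, and scaled by TMM. All 16 libraries entered 1 edgeR 4.0.16 quasi-likelihood fit (robust, R 4.3.3) on treatment, with Benjamini-Hochberg adjustment over all features and a limit of 0.05. The fitting code was tested on simulated counts that held no difference between library sets. For FSK against DMSO it recovered 48% of 2-fold and 77.8% of 4-fold changes, with 4 false calls among 129. Library sets were divided at 5% mitochondrial rRNA. Log2 CPM used a prior count of 2. Alternatives used DESeq2 1.42.0 and limma 3.58.1. Named genes were the 10 members, the gene of lowest p in each other list (or up to 4 passing ones) and the 3 features most correlated with a passing member. The members, the lists and the division into library sets were chosen with earlier results of these data known. No 2 libraries were identical. Promoters were searched with Python 3.11.15.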

Additional observations from a re-analysis of the deposited data

Results flagged for a closer look

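In a group of 4 to 10 libraries, the highest or lowest value was singled out where its gap to the nearest other library, divided by the range of the group, passed Dixon's 95% critical value. This held for 2 of the 30 groups (10 genes in 3 treatments), and chance flags about 1 in 20. Both values came from DHPG 6, the only deep DHPG library. Dusp1 had 60.4 CPM there, with a gap ratio of 0.74. Dusp5 had 12.04 CPM, with a gap ratio of 0.68. DHPG 6 held 11.4% mitochondrial rRNA, and the other DHPG libraries held 1.47 to 2.87%. Whether its library set accounts for either value was not tested, since no other deep DHPG library exists.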

How the results depend on the processing

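Over 1437 alternative values of the 30 member fold changes, 1350 stayed on the same side of the limit, 85 passed it newly, 2 no longer passed and 0 passing values reversed; 168 changed sign without passing in either setting. Genes past the limit numbered 139 in FSK against DMSO, 1 in DHPG against DMSO and 5283 in FSK against DHPG, and members 0, 0 and 1. For FSK against DMSO, genes and members past the limit were 62 and 0 with library totals, 1285 and 3 with the DESeq2 Wald test, 6033 and 4 with limma-voom quality weights, 66 and 0 without a filter, 83 and 0 with 2 groups in the fit, 1622 and 2 with the library-set term, 151 and 1 in deep and 11 and 1 in shallow libraries, 38 and 0 without FSK 4 and FSK 5, 56 and 1 when that fit had the term, and 3390 and 5 by the DESeq2 Wald test with the term (chosen after seeing the data, as were fits with the term that left out 1 library). For DHPG against DMSO they were 7 and 0 with the DESeq2 Wald test, 5940 and 4 with limma-voom, 16 and 1 with the DESeq2 Wald test and the term, and 0 and 0 with a minimum count of 20, with 2 groups in the fit, with the term, within either set, and without FSK 4 and FSK 5 with or without the term. For FSK against DHPG they were 2510 and 1 with library totals, 6356 and 3 with the DESeq2 Wald test, 5764 and 3 with limma-voom, 2905 and 1 without a filter, 4007 and 2 with the term, 0 and 0 in deep and 9 and 1 in shallow libraries, 3 and 0 without FSK 4 and FSK 5, 1551 and 1 when that fit had the term, and 5252 and 2 by the DESeq2 Wald test with the term. Leaving out 1 library gave 12 to 427 genes and 0 to 2 members for FSK against DMSO, 0 to 5 genes for DHPG against DMSO, and 1804 to 5798 genes and 1 to 3 members for FSK against DHPG. The genes moved by over 1.5 times in FSK against DMSO without DMSO 1 (60), 2 (31), 3 (12) or 4 (47), DHPG 1 (224), 2 (47), 5 (61) or 6 (427), or FSK 1 (77), 2 (68), 4 (47) or 5 (35), in DHPG against DMSO without DMSO 1 (2), 2 (5), 3 (0) or 4 (0), and in FSK against DHPG without DHPG 2 (3031), 3 (1924) or 5 (2380), or FSK 4 (2575) or 5 (1804). Without DHPG 6, Dusp1 and Dusp7 passed in FSK against DMSO on treatment alone (adjusted p = 0.032 and 0.028, edgeR), while Dusp1 passed in all 16 such fits with the term (2.598 to 2.89) and in all 16 of FSK against DHPG (1.83 to 2.63). In DHPG against DMSO with the term, Dusp1 passed without DMSO 2 (1.39, adjusted p = 0.032, edgeR). Dusp7 passed in FSK against DMSO in 9 of 16 fits with the term. In FSK against DHPG, leaving out 1 library let Dusp7 pass without DMSO 1, DHPG 1 or DHPG 4, Dusp16 without DMSO 1, DHPG 1, DHPG 6, FSK 2 or FSK 3, and Dusp6 without DHPG 6. The causes were not tested. Dusp2, at 7 to 39 counts, was not tested with a minimum count of 20.

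The labels do not say whether replicate numbers pair the libraries. Same-numbered libraries correlated at -0.41 to 0.39 in their deviations from group means, with 3 of 14 pairs over 0.1. Of the 14, 2 correlated best with their own number. These deviations also hold the library set, which often differs between same-numbered libraries, so the correlations cannot decide whether the libraries are paired. With the replicate block, genes and members past the limit were 531 and 2 (Dusp7 and Dusp8) in FSK against DMSO, 0 and 0 in DHPG against DMSO and 4172 and 2 in FSK against DHPG. With the replicate block and the library-set term they were 4598 and 4 (Dusp1 at 3.04, Dusp7, Dusp8 and Dusp16 at 0.54), 0 and 0, and 1882 and 1.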
